A study of Homo sapiens with 18 samples.

Results

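MAF transcription factors are basic leucine zipper proteins, and 4 of their genes were described here: MAF, a large MAF factor, and the small MAF factors MAFF, MAFG and MAFK. They are 4 of the 60595 genes listed in each deposited table, matched by gene symbol. The set was selected on the FPKM values of P_DT against P_DMSO, where MAF was higher and MAFF lower with drug, so those levels describe the choice and carry no test. The study sequenced RNA of A375, an established human melanoma line with an activating BRAF mutation, as 18 libraries in 9 groups of 2. The labels do not spell out the letters P and R, which are taken to mean parental cells and cells with resistance to BRAF and MEK inhibitors.

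P_DMSO and R_DMSO received the vehicle DMSO, and P_DT and R_DT received 250 nM dabrafenib, a BRAF inhibitor, with 10 nM trametinib, a MEK inhibitor. The samples of these 4 groups are labelled as wild type. P_shCtrl and R_shCtrl carried a control short hairpin delivered by lentivirus, P_shLSD1 and R_shLSD1 a hairpin against LSD1, the histone demethylase encoded by KDM1A, and R_shFosL1 a hairpin against FOSL1, an AP-1 subunit. All groups come from 1 cell line, and the time under drug is not given in the sources used here. No label states whether the 2 replicates of a group are separate cultures. The p-values therefore measure the spread between these libraries, which may be technical.

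Large MAF proteins carry a transcription-activating domain, bind MAF recognition elements as dimers and are known as regulators of cell identity. In multiple myeloma MAF is an oncogene. Small MAF proteins lack such a domain. They pair with each other or with the CNC and BACH proteins, among them NRF2 (encoded by NFE2L2), NRF1 (encoded by NFE2L1) and the repressor BACH1, at antioxidant response elements, where they govern genes of redox control, iron and heme handling and the proteasome.

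On hg38, MAF lies on chromosome 16 from 79585843 to 79600714 on the minus strand, and no other annotated gene overlaps it. MAFF lies on chromosome 22 from 38200767 to 38216511 on the plus strand and overlaps PLA2G6 on the other strand. MAFG lies on chromosome 17 from 81918270 to 81927714 on the minus strand, where it overlaps SIRT7 on the same strand and the transcript AC145207.8 on the other. MAFK lies on chromosome 7 from 1530714 to 1543043 on the plus strand and overlaps TMEM184A on the other strand. Whether the authors' quantification used strand is not given in the sources used here, so values of MAFF, MAFG and MAFK can hold fragments of these neighbours.

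The start-proximal sequences of MAF and MAFF are shown because these genes lay at opposite ends of the drug response of the P line. Each is the 250 bases before an annotated start in RefSeq, GRCh38.p14, written 5′ to 3′ on the gene's strand. The MAF window is chr16:79600738-79600987 on the minus strand and the window of the first MAFF start is chr22:38201744-38201993 on the plus strand. Capitals mark matches to 3 motifs, searched on both strands: TGACGTCA (the cyclic AMP response element), CACGTG (an E-box) and TGCTGA (a MAF half-site, whose reverse complement reads TCAGCA).
MAF: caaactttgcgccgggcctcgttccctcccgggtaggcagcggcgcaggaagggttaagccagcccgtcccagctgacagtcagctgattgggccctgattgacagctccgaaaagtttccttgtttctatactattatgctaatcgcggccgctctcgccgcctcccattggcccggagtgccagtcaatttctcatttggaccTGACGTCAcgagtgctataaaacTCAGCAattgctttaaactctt
MAFF: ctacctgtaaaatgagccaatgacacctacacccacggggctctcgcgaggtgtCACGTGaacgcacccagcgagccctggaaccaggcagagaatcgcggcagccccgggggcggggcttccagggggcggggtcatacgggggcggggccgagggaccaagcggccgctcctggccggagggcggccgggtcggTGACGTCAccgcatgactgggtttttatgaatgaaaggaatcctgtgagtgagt
Both windows hold TGACGTCA, at 45 to 38 bases before the start in MAF and at 54 to 47 bases in MAFF. Of 34943 windows of the same length, 1.63% hold this motif. CACGTG lies in the windows of both MAFF starts and in that of MAFG, and in 6.32% of all windows. TGCTGA matches in the MAF window, 22 to 17 bases before the start, and in 14% of all windows. The AP-1 element TGANTCA, present in 6.59% of windows, has no match in the MAF, MAFF and MAFG windows. The motifs overlap none of each other in these windows, they were chosen after the sequences were seen, and a match is a description of letters.

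The libraries summed to 556410 to 814364 FPKM (fragments normalized to transcript length and sequencing depth), and 13921 to 15314 genes per library reached 1 FPKM. Steps of whole fragments were clear in 12 of 18 libraries and put the depth at 7.76 to 11.2 M fragments, assuming fragments of 250 bases. This criterion was set after the values were seen. Of 7 melanocytic markers, 2 to 3 reached 1 FPKM in P libraries and 1 to 3 in R libraries, with summed levels of 104 to 381 and of 17.9 to 57.9 FPKM. TYR was below 0.1 FPKM in every library. SOX10 was at 89.1 to 333 FPKM in P libraries and listed at 0 in 9 of 10 R libraries, the exception being 1 R_DT library at 0.163 FPKM. KDM1A fell under its hairpin from 78.1 and 72.4 to 9.54 and 6.73 FPKM in the P line (limma log2 difference -3.08, adjusted p = 0.016) and from 73.3 and 76.5 to 10.1 and 11.1 FPKM in the R line (-2.71, adjusted p = 0.00094). FOSL1 stood at 36.2 and 38.3 FPKM in R_shFosL1 beside 109 and 104 FPKM in R_shCtrl of another table.

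MAF mRNA was found in the P line, and its level was highest under drug. It stood at 1.47 and 3.84 FPKM in P_DMSO and at 56.9 and 58.3 FPKM in P_DT, with means of 2.66 and 57.6 FPKM. The 2 drug-treated libraries lay far above both vehicle libraries and above every other library of the series. In such bulk RNA, more cells with MAF and more MAF mRNA per cell cannot be told apart. The difference was 4.08 on the log2(FPKM+1) scale, the scale of every difference given here. In the P hairpin table, MAF stood at 2.34 and 0.991 FPKM in P_shCtrl and at 2.97 and 3.25 FPKM in P_shLSD1, near the untreated P libraries.

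Both R_DMSO libraries and all 6 R hairpin libraries had MAF listed at 0. In R_DT it stood at 0.0562 and 0.0906 FPKM. At the depth of the R_DMSO libraries, 3 fragments on the shortest annotated MAF transcript, of 1217 bases, come to 0.382 and 0.364 FPKM. Both R_DT values lie below these levels. Fewer fragments, or fragments on a longer transcript, would give lower values, so these levels are no floor of detection. They cover counting error only. No fold is given against a group listed at 0. The P libraries ranged from 0.991 to 58.3 FPKM and the R libraries from 0 to 0.0906 FPKM, so the lines did not overlap in any of their groups.

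Across groups the mean level of MAF ordered P_DT, P_shLSD1, P_DMSO and P_shCtrl. The libraries of P_DT stood apart from those of P_shLSD1, while neighbours in the rest of that order overlapped. Groups sit in 4 tables that were normalized separately, so an order across tables is a description. The large MAF genes MAFA and NRL were low throughout, with a highest single value of 1.17 FPKM (NRL in P_shCtrl). The noncoding neighbour MAFTRR stood at 0.343 and 0.311 FPKM in P_DT and at 0.0578 and 0 FPKM in P_DMSO.

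**Figure D1:**
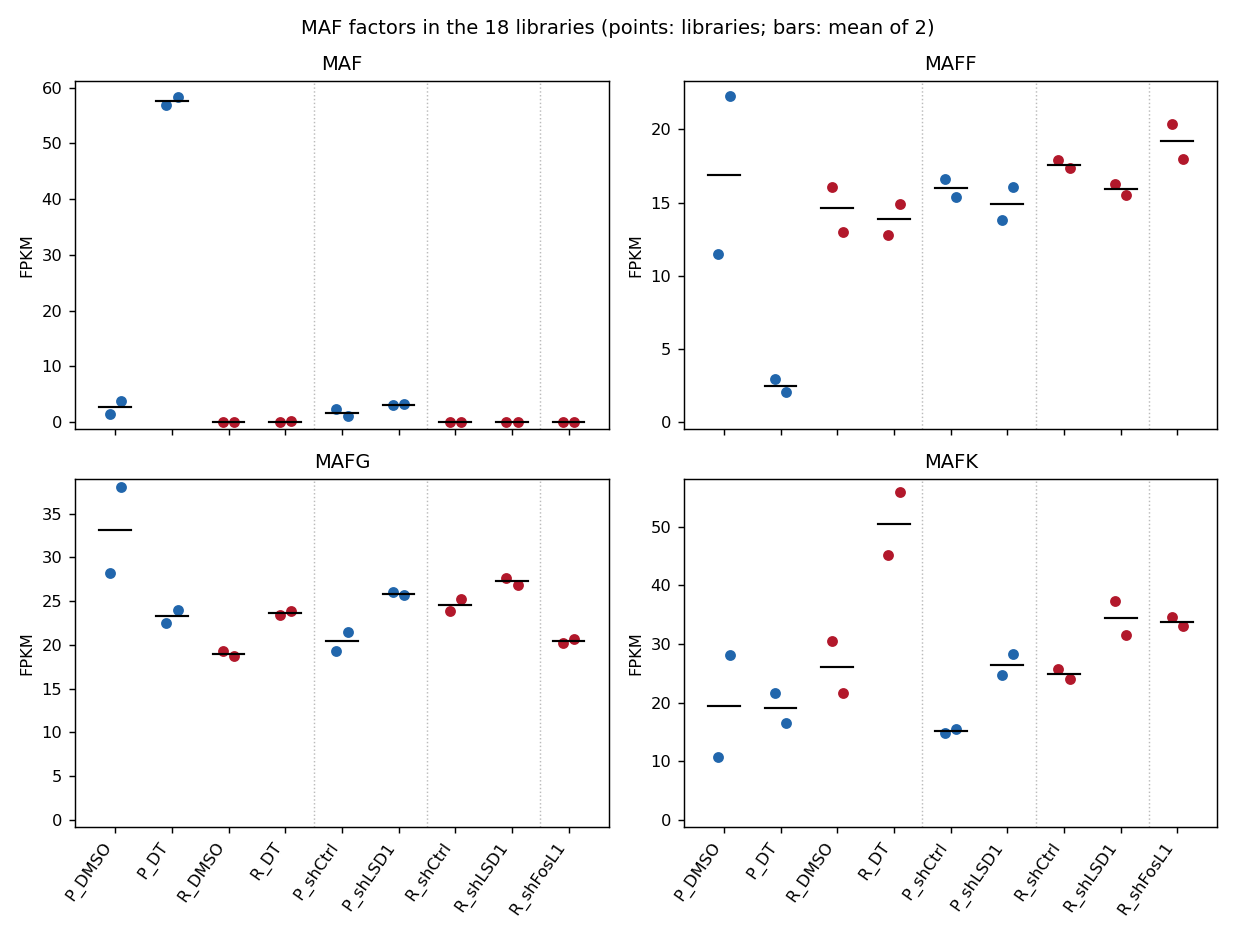
Levels of MAF, MAFF, MAFG and MAFK in FPKM (vertical axes, each with its own range) in the 9 groups, with P libraries in blue, R libraries in red, a bar at the mean of 2 libraries, and dotted lines between the 4 tables. MAF stands at 56.9 and 58.3 FPKM in P_DT and at or near 0 in every R library, MAFF is lowest in P_DT, and MAFK is highest in R_DT at 45.2 and 55.9 FPKM.

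MAFF, a small MAF factor known to be induced by stress and growth signals, was lower in P_DT than in every other group. It stood at 11.5 and 22.3 FPKM in P_DMSO and at 2.97 and 2.02 FPKM in P_DT, a difference of -2.31. Both vehicle libraries lay above both treated ones, although the vehicle libraries also differed from each other. PLA2G6, which overlaps MAFF, was higher in P_DT (3.59 and 5.6 against 9.66 and 9.21 FPKM, limma log2 difference 0.92 ± 0.25 (SE), adjusted p = 0.041). Its call ended under 5 of the 7 other settings, when P_DMSO replicate 1 was left out (adjusted p = 0.12) and when either P_DT library was (0.17 and 0.15).

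R cells held MAFF at 16.1 and 13 FPKM in R_DMSO and at 12.8 and 14.9 FPKM in R_DT. The libraries overlapped and the difference of -0.06 ± 0.32 (SE, limma) had an adjusted p of 0.94. Its direction turned without R_DMSO replicate 1 (0.08) or without R_DT replicate 1 (0.04). The R libraries under drug lay 2.1 (log2 scale) above the P libraries under drug, and the vehicle libraries of the lines overlapped, with a difference of -0.14 from P to R. Both comparisons reuse libraries of the contrast on which MAFF was chosen and have no test.

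The LSD1 hairpin left MAFF at 13.8 and 16.1 FPKM in P_shLSD1 beside 16.6 and 15.4 FPKM in P_shCtrl, with overlapping libraries (limma difference -0.10 ± 0.17 (SE), adjusted p = 0.77). In the R line it stood at 16.3 and 15.5 FPKM in R_shLSD1 beside 17.9 and 17.4 FPKM in R_shCtrl, a difference of -0.14 ± 0.11 (SE, limma, adjusted p = 0.42) with the libraries apart. R_shFosL1 held the highest mean, with libraries at 20.4 and 18 FPKM. From the second to the eighth place of the order, from R_shCtrl to R_DT, each group overlapped the next.

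MAFG, a small MAF factor widely paired with NRF2, varied over a narrower range, from 18.7 to 38 FPKM over the 18 libraries with a median of 23.9 FPKM. It stood at 28.2 and 38 FPKM in P_DMSO, 22.5 and 24 FPKM in P_DT, 19.3 and 18.7 FPKM in R_DMSO, and 23.4 and 23.9 FPKM in R_DT. P_DMSO was the highest of the 9 groups and R_DMSO the lowest. With drug the difference was -0.47 in the P line (-0.26 without P_DMSO replicate 2), given without a test, and 0.30 ± 0.17 (SE) in the R line, where limma gave an adjusted p of 0.32. The treated groups of the lines overlapped in MAFG (limma difference 0.02 ± 0.17 (SE), adjusted p = 0.93), with the sign turning without P_DT replicate 1 (-0.02).

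Under vehicle MAFG was lower in the R line than in the P line. The difference was -0.76 ± 0.17 (SE), with limma's adjusted p at 0.017, and both R libraries lay below both P libraries. In this comparison 11.5% of 17191 tested genes were called lower and 16.2% higher. The call ended without R_DMSO replicate 1 (adjusted p = 0.078), without R_DMSO replicate 2 (adjusted p = 0.09) and when the 2 groups were fitted alone (adjusted p = 0.082). SIRT7, which overlaps MAFG on the same strand, had a difference of -0.40 (limma, adjusted p = 0.22) in the same comparison. The control hairpin groups went the other way in MAFG, at 23.9 and 25.2 FPKM in R_shCtrl beside 19.3 and 21.5 FPKM in P_shCtrl. Those 2 groups were normalized separately and have no test.

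In the hairpin libraries MAFG stood at 19.3 and 21.5 FPKM in P_shCtrl and at 26 and 25.7 FPKM in P_shLSD1. The R line had 23.9 and 25.2 FPKM in R_shCtrl and 27.7 and 26.9 FPKM in R_shLSD1. Both LSD1 hairpin groups lay above their controls without overlap, but neither difference passed the test: 0.33 ± 0.15 (SE) in the P line with limma's adjusted p at 0.26, and 0.15 ± 0.10 (SE) in the R line at 0.32. R_shFosL1 stood lower, at 20.2 and 20.7 FPKM.

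MAFK, the third small MAF factor, was highest in drug-treated R cells. It stood at 30.6 and 21.6 FPKM in R_DMSO and at 45.2 and 55.9 FPKM in R_DT, without overlap. The difference was 0.94 ± 0.42 (SE), and limma's adjusted p of 0.23 did not pass, though it did when these 2 groups were fitted alone (adjusted p = 0.036). In that comparison 6.49% of 17191 genes were called, 3.65% higher and 2.83% lower. None of the 3 small MAF genes tested there was called by limma. Each had an unadjusted p above 0.05, while 4146 of all 17191 genes had one below it.

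In the P line MAFK libraries overlapped, at 10.8 and 28.2 FPKM in P_DMSO and 21.7 and 16.6 FPKM in P_DT. The described difference of 0.11 had no stable sign: it was -0.01 after quantile normalization, -0.55 without P_DMSO replicate 1 and -0.08 without P_DT replicate 1. P_DMSO replicate 1 was the lowest library of the series for MAFK. It also decided the vehicle comparison of the lines, where R minus P was 0.53 ± 0.42 (SE, limma, adjusted p = 0.39). That value was -0.12 without P_DMSO replicate 1 and 1.18 (adjusted p = 0.018) without P_DMSO replicate 2.

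Under drug MAFK was higher in the R line than in the P line. Both R_DT libraries lay above both P_DT libraries, and limma gave a difference of 1.36 ± 0.42 (SE) with an adjusted p of 0.04, where 18.6% of genes were called higher and 19% lower. The call ended without P_DT replicate 1 or 2 (adjusted p = 0.098 and 0.17), without R_DT replicate 1 or 2 (0.1 and 0.17), with no filter on low values (0.077) and with the replicate number as a block (0.058). TMEM184A, which overlaps MAFK on the other strand, was higher in the R line as well, with means of 9.01 against 1.89 FPKM (difference 1.79, adjusted p = 0.002), and its part in the MAFK value was not tested.

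With the LSD1 hairpin MAFK stood higher in both lines. It went from 14.8 and 15.6 FPKM in P_shCtrl to 24.8 and 28.3 FPKM in P_shLSD1, a limma difference of 0.77 ± 0.16 (SE) with an adjusted p of 0.065. The libraries were apart, and the call was made only after quantile normalization (adjusted p = 0.048) among the 9 alternatives, which spanned adjusted p from 0.048 to 0.22. In this comparison 3.42% of 14729 tested genes were called, 2.2% higher and 1.22% lower, and limma called none of the 4 members. Of the members, MAFK alone had an unadjusted p below 0.05, as did 3629 of all 14729 genes.

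In R cells MAFK rose from 25.7 and 24.1 FPKM in R_shCtrl to 37.4 and 31.6 FPKM in R_shLSD1. Limma gave 0.45 ± 0.12 (SE) with an adjusted p of 0.049, against a background of 9.42% of 14293 genes called higher and 12.4% lower. The call stood at the threshold: it ended with a pseudocount of 0.1 (adjusted p = 0.051), with no filter (0.11) and without trend and robust fitting (0.1). It also ended without R_shCtrl replicate 1 or 2 (0.12 and 0.16) and without R_shLSD1 replicate 1 or 2 (0.18 and 0.061). In this comparison MAFK was 1 of 3 members called, and MAF was below the filter.

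The hairpin differences of the lines were compared directly. R minus P was -0.32 ± 0.19 (SE) for MAFK, -0.18 for MAFG and -0.04 for MAFF, with limma's adjusted p at 0.45, 0.64 and 0.94, where 1.88% of 16075 genes were called, 0.641% higher and 1.24% lower. TMEM184A stood at 4.27 against 2.35 FPKM in the P line (difference 0.67, adjusted p = 0.2) and at 8.64 against 6.97 FPKM in the R line (0.27, adjusted p = 0.23). Mitochondrially encoded mRNA made up 12.9% and 11% of the total in P_shLSD1 against 8.05% and 7.47% in P_shCtrl, and 15.1% and 16.3% in R_shLSD1 against 12.8% and 13.7% in R_shCtrl. Its part in these differences was not tested. For MAF in the P line the LSD1 hairpin difference was 0.67 ± 0.32 (SE, limma, adjusted p = 0.27), with the libraries apart. It was 1.05 without P_shCtrl replicate 1 and 0.30 without P_shCtrl replicate 2.

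Beside R_shCtrl, the FOSL1 hairpin libraries held MAFK at 34.6 and 33.1 FPKM, a difference of 0.43. MAFF differed by 0.12 and MAFG by -0.25, and each of these 3 genes had its libraries apart. The MAFF value was 0.03 without R_shFosL1 replicate 1 and 0.20 without R_shFosL1 replicate 2. The FOSL1 hairpin table has no control of its own and was normalized separately, so hairpin and table cannot be told apart and no test was made.

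**Figure D2:**
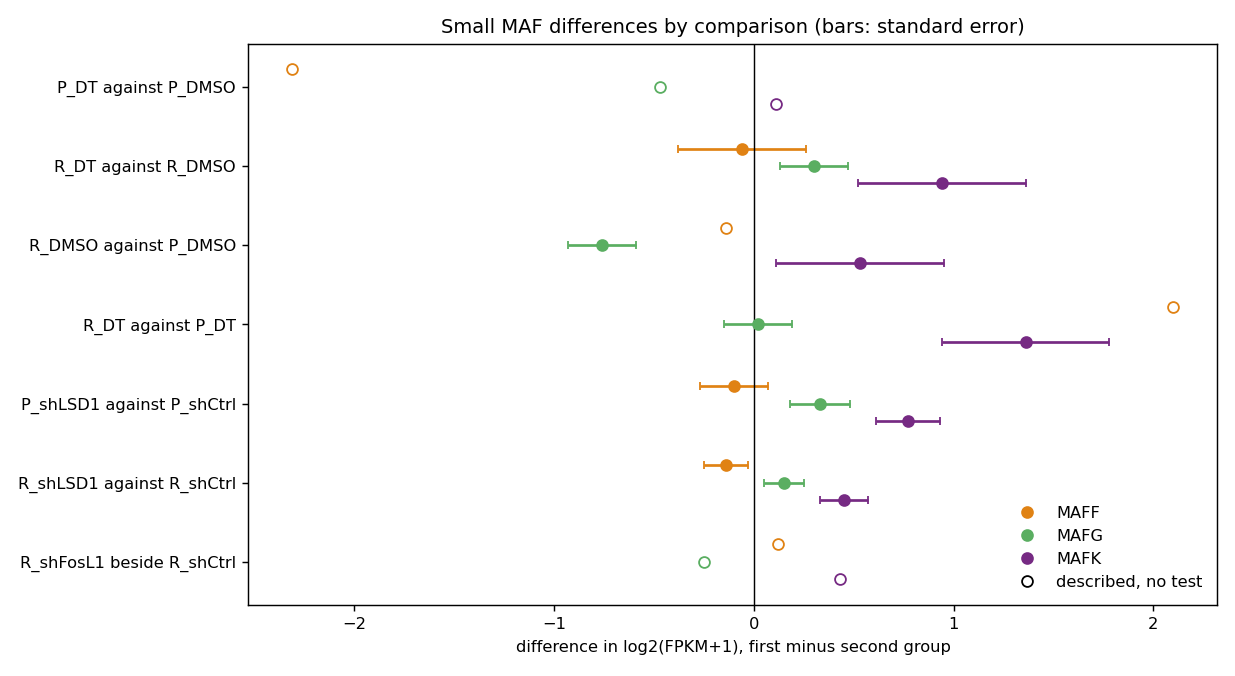
Differences of MAFF, MAFG and MAFK in log2(FPKM+1) (horizontal axis, first minus second group) for 7 comparisons, with filled points and standard errors where limma was applied and open points where values are described only. MAFF is lowest in P_DT against P_DMSO at -2.31, and MAFK lies above 0 in all 7 comparisons, which share groups and are not independent. MAFK is at 0.11 in the P line under drug, a sign that turns after quantile normalization. Between the vehicle groups it is at 0.53, a sign that turns without P_DMSO replicate 1.

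The small MAF genes share partners, so their levels were also read as shares of their summed FPKM. MAFF made up 22.9% and 25.3% of the sum in P_DMSO and 6.3% and 4.73% in P_DT. Its share was 24.4% in both R_DMSO libraries and 15.8% and 15.7% in R_DT, although its level overlapped between these groups. MAFK made up 55.5% and 59% of the sum in R_DT, the highest shares of any library. MAFG held the largest share in both P_DMSO libraries, at 55.8% and 42.9%. With the LSD1 hairpin the MAFK share went from 29.1% and 29.6% to 38.4% and 40.4% in the P line and from 38.1% and 36.1% to 45.9% and 42.6% in the R line.

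**Figure D3:**
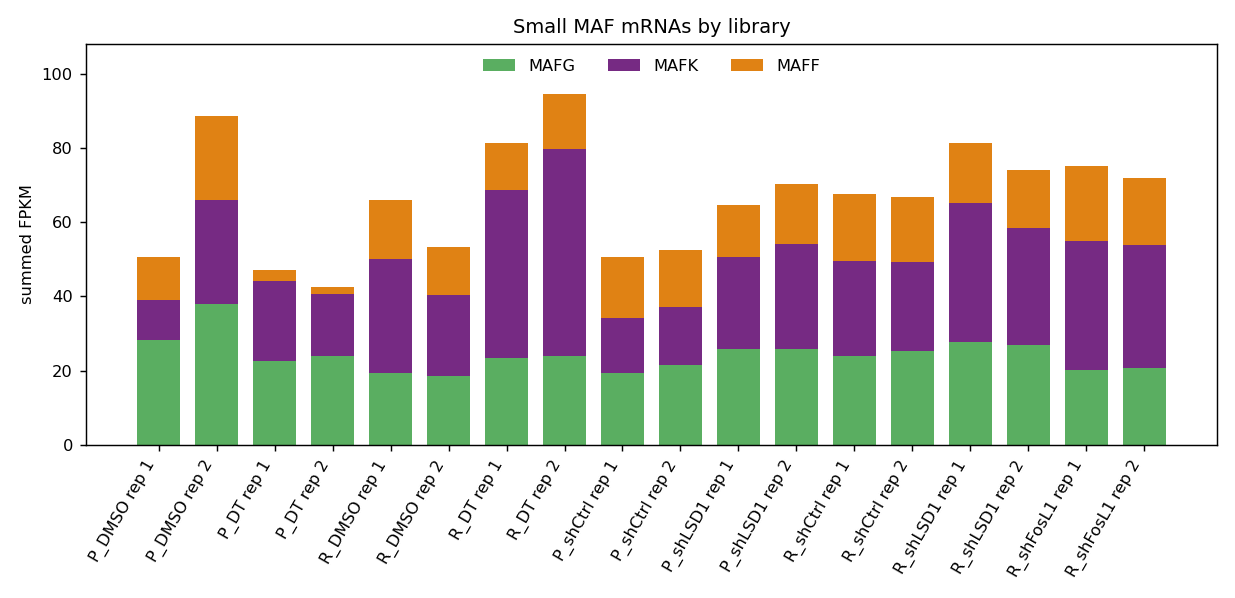
Summed FPKM of MAFG, MAFK and MAFF (vertical axis) in each of the 18 libraries, stacked by gene. The MAFF segment is smallest in the 2 P_DT libraries, at 6.3% and 4.73% of the sum, and the MAFK segment is largest in the 2 R_DT libraries.

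Among 7 genes of the CNC and BACH partners and KEAP1, the adaptor that directs NRF2 for degradation, 6 passed the filter in the drug table. With drug in the P line, where 12.8% of 17191 genes were called higher and 9.67% lower, 0 of 6 tested were higher and 1 lower. The higher calls were 57% of all calls there and 48.6% after quantile normalization, and 58.4% and 49.4% between the vehicle groups of the lines. BACH1, the heme-sensing repressor, fell from 27.7 and 34.4 FPKM to 11.6 and 9.29 FPKM (limma -1.48 ± 0.25 (SE), adjusted p = 0.0089), a call that ended without P_DT replicate 2 (0.068). R cells held BACH1 at 17.2 and 24.8 FPKM in R_DMSO and at 41.2 and 29 FPKM in R_DT (0.72, adjusted p = 0.15). BACH1, like MAFF, was thus at its lowest of the drug table in P_DT. In P_shCtrl, normalized separately, BACH1 stood at 7.81 and 12.1 FPKM, near its P_DT values. MAFF stood there at 16.6 and 15.4 FPKM, far above its P_DT values.

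KEAP1 fell with drug in the R line, from 29.7 and 28.2 FPKM to 13 and 17.2 FPKM (limma -0.90 ± 0.16 (SE), adjusted p = 0.023), the only call among 6 tested partners there, where 6.49% of all genes were called. Each library left out in turn ended it (adjusted p from 0.08 to 0.15). NFE2L3, a CNC factor related to NRF1, was higher in R_DMSO than in P_DMSO, at 39.8 and 41.5 against 18.4 and 14.8 FPKM (1.25 ± 0.15 (SE), adjusted p = 0.0015). Between R_DT and P_DT 4 of the 6 were called, 2 higher and 2 lower in the R line, where 18.6% of all genes were higher and 19% lower. The limma log2 differences were 1.79 for NFE2L3, 1.64 for BACH1 and -1.49 for KEAP1 (adjusted p = 0.00023, 0.0031 and 0.00068). NFE2L2 itself lay between 30 and 49.3 FPKM in all 18 libraries, and its difference of -0.58 between R_DT and P_DT was called just under the threshold (adjusted p = 0.05). That call ended with each library left out in turn (0.13 to 0.19) and under 6 of the 7 other settings. With the LSD1 hairpin in the R line NFE2L1 fell from 90 and 89 to 62.7 and 56.1 FPKM (-0.59 ± 0.08 (SE), adjusted p = 0.0097). That call ended without R_shCtrl replicate 1 (0.057) and without trend and robust fitting (0.05, just over the threshold). In the P line NFE2L1 stood at 76.5 against 54.5 FPKM (0.48, adjusted p = 0.25), and R minus P was -1.06 with an adjusted p of 0.081.

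**Figure D4:**
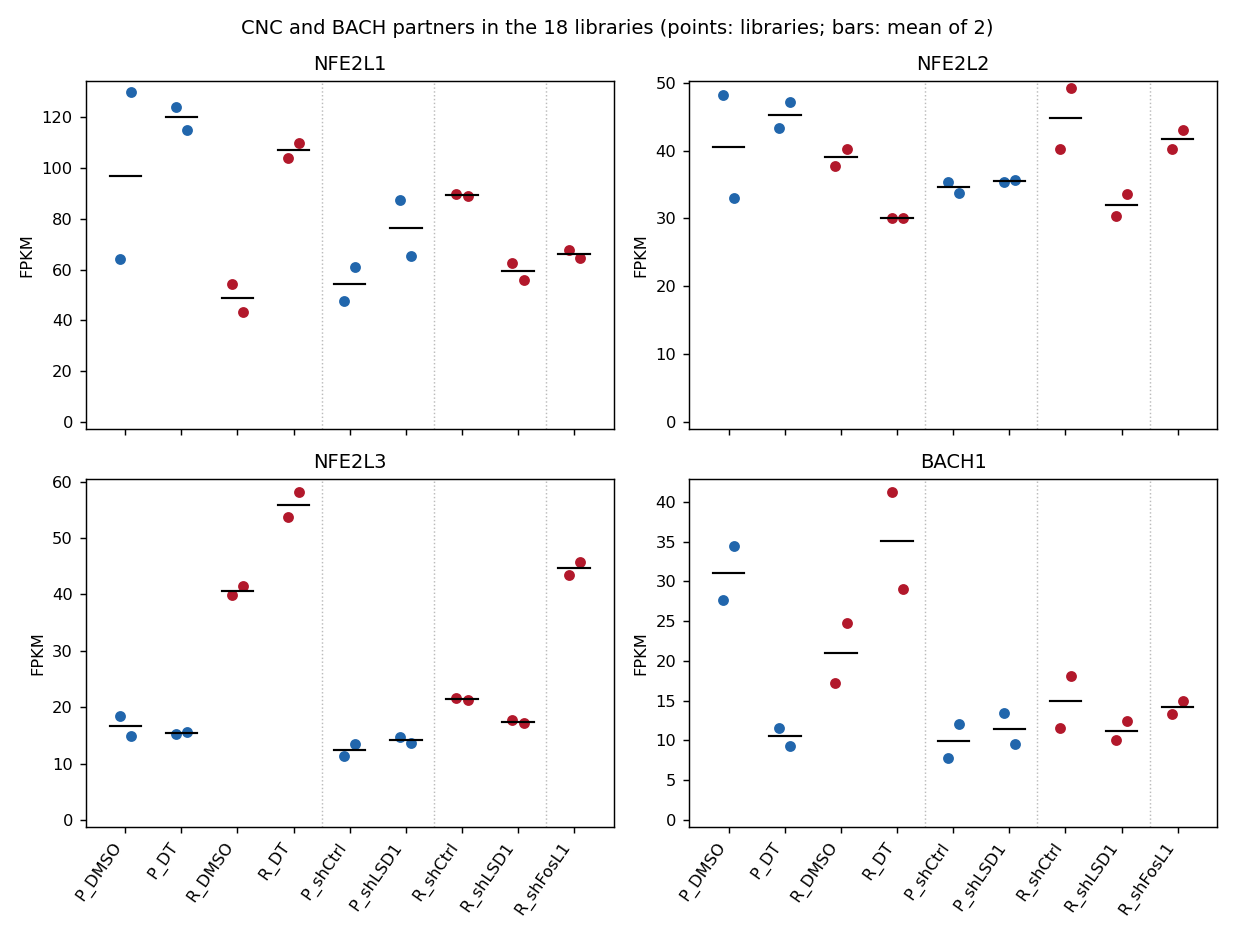
Levels of NFE2L1, NFE2L2, NFE2L3 and BACH1 in FPKM (vertical axes, each with its own range) in the 9 groups, drawn as for the MAF genes. BACH1 has its lowest drug-table values in P_DT, at 11.6 and 9.29 FPKM, and NFE2L3 is higher in R_DMSO than in P_DMSO.

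FOS and JUN proteins can also pair with MAF factors. With drug in the P line 3 of 7 were called higher and 1 lower, against 12.8% and 9.67% of all genes. JUN rose from 8.12 and 16.6 to 292 and 319 FPKM (limma 4.59 ± 0.29 (SE), adjusted p = 0.00026). In R_DT against R_DMSO 0 of 7 were called by limma, against 6.49% of all genes. An unadjusted p below 0.05 was found for 2 of the 7, beside 4146 of all 17191 genes. There JUN stood at 45.9 and 41 against 24.6 and 20.3 FPKM (0.93, adjusted p = 0.11).

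Genes with antioxidant response elements, where small MAF dimers bind, were read as a list of 29, of which 28 passed the filter. With drug in the P line 5 were higher and 5 lower, against 12.8% and 9.67% of all genes, with a median difference of 0.25 beside 0.11 over all genes. HMOX1, heme oxygenase 1 and a known BACH1 target, rose from 3.94 and 5.13 to 17 and 21.6 FPKM (limma 1.87 ± 0.25 (SE), adjusted p = 0.0039). FTH1, the ferritin heavy chain, fell (-1.49 ± 0.15 (SE), adjusted p = 0.0013). Leaving out P_DMSO replicate 2 brought the count of higher genes to 8, leaving out P_DT replicate 1 brought it to 2 and the count of lower ones to 3, and leaving out P_DT replicate 2 brought the higher count to 1.

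In R_DT against R_DMSO 2 of the 28 were higher and none was lower, against 3.65% and 2.83% of all genes, and both (EPHX1 and BLVRB) lost their limma call with each library left out. Under vehicle 11 were higher in the R line and 3 lower, against 16.2% and 11.5% of all genes. Under drug 14 were higher and 4 lower, against 18.6% and 19%. Of the 3 lower under vehicle, SLC7A11 differed by -3.10, HMOX1 by -1.28 and FTH1 by -1.02 (limma adjusted p = 0.00012, 0.011 and 0.0035). Of the 11 higher, PRDX1, a peroxiredoxin, differed by 1.81 and TXNRD1, thioredoxin reductase 1, by 1.24 (adjusted p = 0.0004 and 0.00086).

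With the LSD1 hairpin in the R line 10 of the 28 were higher and 1 lower, against 9.42% and 12.4% of all genes, with a median of 0.16 beside -0.05 over all genes. FTH1 rose by 1.07, the autophagy receptor gene SQSTM1 by 1.07, sulfiredoxin gene SRXN1 by 1.15 and the ferritin light chain gene FTL by 0.71 (limma adjusted p from 0.0012 to 0.0024). The count of higher genes was 4 without R_shCtrl replicate 1, 5 without R_shCtrl replicate 2, 5 without R_shLSD1 replicate 1 and 6 without R_shLSD1 replicate 2. In the P line 0 of 28 were higher and 1 lower (AKR1C2, -1.46, limma adjusted p = 0.045), against 2.2% and 1.22% of all genes. The AKR1C2 call ended with a pseudocount of 0.1 (0.05, just over the threshold), with no filter (0.12), without P_shCtrl replicate 1 (0.065) and without P_shLSD1 replicate 2 (0.088). Of these genes SRXN1 differed between the lines in its hairpin effect, with R minus P at 0.94 ± 0.14 (SE, adjusted p = 0.028).

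The 31 proteasome genes, known as targets of NRF1 with small MAF partners, were all tested. With the LSD1 hairpin in the R line 22 were lower and 1 higher, against 12.4% and 9.42% of all genes, with a median of -0.34 beside -0.05. PSMD1 fell by 0.81 and PSMA4 by 0.59, and PSMB5, a catalytic subunit gene, rose by 0.90 (limma adjusted p = 0.004, 0.0037 and 0.0023). The count of lower genes was 11 without either R_shCtrl replicate and 13 without either R_shLSD1 replicate. In the P line limma called none of the 31, against 1.22% of all genes lower and 2.2% higher. Their median there was -0.24 beside -0.04. An unadjusted limma p below 0.05 was found for 6 of the 31, beside 3629 of all 14729 genes. Limma called the difference between the lines for none of the 31, against 1.88% of all genes. None of 31 is near these shares of called genes. In that comparison 1 of the 31 had an unadjusted p below 0.05, beside 2798 of all 16075 genes. With drug 5 were lower and 1 higher in the P line, against 9.67% and 12.8% of all genes. Leaving out P_DMSO replicate 2 brought the lower count to 9, and leaving out P_DT replicate 1 or 2 brought it to 1 and 2. In the R line 3 were lower with drug, against 2.83% of all genes, and these calls ended with each library left out in turn. The median there was -0.37 beside -0.03 over all genes. Of the 31, 15 had an unadjusted limma p below 0.05, beside 4146 of all 17191 genes. Between the vehicle groups 11 were higher in the R line and none lower, against 16.2% and 11.5% of all genes. That count moved with single libraries. Between the drug groups 8 were higher and 1 lower, against 18.6% and 19%.

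Of 5 genes known to be induced by MAF in myeloma, 4 passed the filter in the drug table, CCND2 among them only through R_DT. In P_DT against P_DMSO, where 12.8% of genes were called higher and 9.67% lower, limma called none. An unadjusted p below 0.05 was found for 0 of them, beside 6429 of all 17191 genes. CCND2 was at or near 0 FPKM in both groups, so it could not be called there. The rest are too few to set against these shares. NUAK1, a kinase gene, had a difference of -0.09 there (limma adjusted p = 0.82). It rose with drug in the R line, from 12.7 and 12 to 36.5 and 34.9 FPKM (1.46, adjusted p = 0.021), where MAF was at 0.0562 and 0.0906 FPKM. That call ended with each library left out in turn (adjusted p from 0.12 to 0.15). CCND2, a D-type cyclin gene, passed the filter only through R_DT, so its tests are not given. It stood at 4.81 and 4.64 FPKM in R_DT, 0.588 and 0.66 FPKM in R_DMSO and at or below 0.0324 FPKM in the P libraries of the drug table. With the LSD1 hairpin in the P line 1 of 2 tested was called higher, against 2.2% of all genes. This was ITGB7, with a difference of 1.24 (limma, adjusted p = 0.045), and the call did not hold under every alternative.

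Around MAFG, 2 neighbours stood lower with the LSD1 hairpin in both lines, and PYCR1 passed the test in both. MAFG-DT, a noncoding gene that runs divergently from the MAFG start (chromosome 17, 81927829 to 81930753, plus strand), stood at 6.55 and 6.04 FPKM in P_shCtrl and at 1.72 and 2.35 FPKM in P_shLSD1 (limma -1.27 ± 0.23 (SE), adjusted p = 0.053). The P value passed after quantile normalization alone (0.042) among its alternatives. In the R line it stood at 2.25 and 2.4 FPKM in R_shCtrl and at 0.481 and 0.84 FPKM in R_shLSD1, without overlap. There it passed the filter only through R_shCtrl, the group where it is high, so no test is given.

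PYCR1, which encodes an enzyme of proline synthesis and lies next to MAFG-DT (81932384 to 81942412, minus strand), fell in both lines. It went from 72.8 and 55.8 to 19.5 and 20.2 FPKM in the P line (limma -1.63 ± 0.18 (SE), adjusted p = 0.024) and from 50.8 and 44.8 to 20.3 and 18.2 FPKM in the R line (-1.27 ± 0.11 (SE), adjusted p = 0.0034). Only the P call with no filter on low values was lost (0.092) among the alternatives run. MAFG, on the other side of MAFG-DT, did not share their direction, with the differences of 0.33 and 0.15 given above. With this hairpin, of 10 neighbours tested around the 4 genes 1 was lower and none higher in the P line, against 1.22% and 2.2% of all genes. Of 9 in the R line PYCR1 and WWOX were called lower and none was called higher, against 12.4% and 9.42%. MAFG-DT is 1 of the 9 and is left out of these calls, since it passed the filter only through R_shCtrl.

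Over the 8 drug libraries, the genes whose log2(FPKM+1) followed each MAF gene most closely were ranked by Pearson's r among 13203 protein-coding genes. For MAF they were PCDHGC3 (r = 0.9986), TCTA (0.9972) and SCARA5 (0.9959), all with their highest mean in P_DT. For MAFF they were EGFR (0.9866), LRRFIP1 (0.9846) and IL20RB (0.9839), each lowest in P_DT. EGFR, the epidermal growth factor receptor gene, had means of 11.1, 1.8, 10.3 and 7.74 FPKM in P_DMSO, P_DT, R_DMSO and R_DT. For MAFG they were GPR153 (0.9810), SNHG32 (0.9802) and ISG20 (0.9762), and for MAFK FOXO6 (0.9780), SPEN (0.9753) and QSOX2 (0.9745). The points share groups and libraries, and the genes were picked for these values. Over the 8 LSD1 and control hairpin libraries the pairs with MAF gave 0.88 for PCDHGC3, 0.59 for TCTA and 0.82 for SCARA5. Those with MAFF gave 0.34 for EGFR, 0.68 for LRRFIP1 and 0.67 for IL20RB. With MAFG the values were -0.65 for GPR153, -0.18 for SNHG32 and -0.53 for ISG20. With MAFK they were -0.88 for FOXO6, 0.68 for SPEN and 0.55 for QSOX2.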

How the data were processed

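RNA-seq of 18 libraries was deposited as 4 tables of FPKM, and the authors made these values with CASAVA 1.4, HISAT2 2.1.0, hg38 and Cufflinks 2.2.1, per the submitters' processing notes. A directional kit and rRNA depletion are both described, without assigning samples. Of the tables' per-sample columns, 54 (intervals and status) were not used, and 4940 blank rows of 1 table were dropped.

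Genes that reached 1 FPKM in 2 libraries or more were compared on log2(FPKM+1) with limma 3.58.1 (eBayes, trend and robust fitting), and a Benjamini-Hochberg adjusted p below 0.05 counts as called. The pseudocount understates changes of low genes. The 8 drug libraries were fitted together and each hairpin table alone. The files used hold FPKM and not counts, so no count model was run. The code was run on simulated data, where 37% of 100 genes changed by a log2 of 1 were recovered in R_DT against R_DMSO. The noise model was changed after a first version recovered less, so this share depends on that choice.

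The 4 genes, the 7 context lists and the tests were chosen with earlier results of these data known, and P_DT against P_DMSO chose the members, so they are untested there. MAF and MAFF are also untested between lines. Named are all members, hairpin targets, up to 4 genes per list with the smallest p in a comparison, and the 3 genes most like each member. MAFTRR, MITF and the genes overlapping a member were named outside this rule, after their values were seen. Sequences are from RefSeq, GRCh38.p14, where 3 of 4 members matched, and gene positions from GENCODE 29. Figures were drawn with matplotlib 3.10.9 in Python 3.11.15 (pandas 2.3.3, numpy 2.4.6), and limma ran in R 4.3.3.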

Additional observations from a re-analysis of the deposited data

Results flagged for a closer look

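MAFG had drug differences of opposite sign in the lines, -0.47 in the P line and 0.30 in the R line on the log2(FPKM+1) scale. The P value was -0.68 without P_DMSO replicate 1 and -0.26 without P_DMSO replicate 2. Every P_DT library lay below every P_DMSO library, and every R_DT library lay above every R_DMSO library. The difference between the lines was not tested, because it holds the contrast on which the genes were picked. The R value alone did not pass (limma, adjusted p = 0.32).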

How the results depend on the processing

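With 17 tested results of the 4 genes, 90 of 99 values under other settings and 62 of 80 with a library left out kept direction and side of the threshold. MAFK in R_shLSD1 lost its call with a pseudocount of 0.1 (0.46), no filter (0.45) and no trend (0.45). MAFK in R_DT against P_DT lost it with no filter and with the replicate block (both 1.36). MAFG in R_DMSO against P_DMSO lost it with the 2 groups alone (-0.76). MAFK gained a call in R_DT against R_DMSO with the 2 groups alone (0.94) and in P_shLSD1 after quantile normalization (0.79). Quantile normalization turned MAFF's hairpin effect between the lines (0.01) and MAFK in P_DT (-0.01), and moved the median of all genes in P_DT from 0.106 to -0.00233.

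With each library left out, the range was -0.21 to 0.08 for MAFF and 0.70 to 1.18 for MAFK in R_DT against R_DMSO, -0.20 to 0.01 for MAFF in P_shLSD1, and 0.33 to 0.57 for MAFK in R_shLSD1. Against the P line it was -0.96 to -0.55 for MAFG and -0.12 to 1.18 for MAFK under vehicle, and -0.02 to 0.06 for MAFG and 1.18 to 1.54 for MAFK under drug. MAFF's hairpin effect between the lines ran from -0.15 to 0.06. Described values ran from -0.55 to 0.76 for MAFK in P_DT and from -0.59 to 0.30 for MAFF in R_DMSO against P_DMSO. A group left with 1 library is assumed to vary like the others, and the fits have fewer libraries; other causes were not tested. Counts of list members with a library left out were added after seeing the data.

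Same-numbered drug libraries did not deviate together (correlations from -0.161 to 0.069), and the main fits used no replicate block. These correlations cannot show whether the libraries were made as pairs. Calls over all genes, and with them the shares of genes called, depend on single libraries. With 1 library left out they ran from 54 to 101 in R_DT against R_DMSO (1115 with all), 1179 to 6055 in P_DT (3861), 2267 to 5755 between the vehicle lines (4753) and 3552 to 3669 between the drug lines (6464). For the LSD1 hairpin they ran from 271 to 950 in the P line, 966 to 1439 in the R line and 31 to 135 between the lines. The block moved the calls from 1115 to 626 in R_DT against R_DMSO. They also moved by over 1.5 times with the 2 groups alone (P_DT 3861 to 1451, R_DT 1115 to 2507, vehicle lines 4753 to 2530). For the LSD1 hairpin, limma called 504 genes in the P line, 0 with no filter (3969 at an unadjusted p below 0.05), 879 after quantile normalization and 319 without trend. In the R line 3118 fell to 1609 with no filter and 1840 without trend. Between the lines 303 became 202 with a pseudocount of 0.1 and 84 with no filter. Limma's calls in the hairpin tables rest on 2 libraries a group.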
